A study of Mus musculus with 18 samples.

Results

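A set of 333 short and very strongly marked H3K9me3 stretches was described in mouse embryonic stem cells (mESCs). A stretch is a run of bases, on chromosomes 1 to 19, that lies under a peak of each wild-type library. The 333 were chosen by their wild-type reads, out of 104009 shared stretches (0.32%): the covering peak in each list held at least 100 ChIP reads and at least 7 ChIP reads for each background read, and the stretch was under 15000 bp. No stretch of 15000 bp or longer passed the read thresholds, so the length limit removed 0 stretches. The 3 genotypes of the mESC line E14TG2a had 2 libraries each: wild-type, *Uhrf1* KO and *Dhx9* KO, all grown in serum and LIF and immunoprecipitated with the same antibody against H3K9me3. The study's lines carry a tetO-eGFP reporter of inducible silencing, and its *Uhrf1* KO lines are clones made with CRISPR-Cas9; which clone gave which library is not stated in the labels, and how the *Dhx9* KO line was made is not given in the sources used here. The study's methods call the 2 libraries of a genotype biological replicates. The p-values of the read-count tests weigh a difference between genotypes against the spread between such libraries, estimated with the help of all regions tested. Whether this spread includes differences between clones is not known.

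H3K9me3 is the histone mark of constitutive heterochromatin, and in mESCs much of it lies on transposable elements. KRAB zinc finger proteins bind such elements and recruit TRIM28 and the methyltransferase SETDB1, and the intracisternal A-particle (IAP), a family of endogenous retroviruses, is among the best known targets. Tandem arrays are short units repeated head to tail, and some of them carry the mark too. UHRF1 reads H3K9me3 and hemimethylated CpG and recruits DNMT1, which copies DNA methylation after replication. DHX9 is an RNA and DNA helicase that acts on structured nucleic acids, including those made by repeats.

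Within wild-type cells, the values that the rule used were as follows. The median length of a stretch was 2000 bp, 181 of the 333 were 2 kb or shorter and 46 were over 5 kb, and together they spanned 896 kb. The covering peak held a median of 200 ChIP and 22 background reads in wild-type replicate 1, and 189 and 22 in replicate 2. The lower of the 2 ratios was under 8 in 157 stretches, at least 10 in 70 and at least 20 in 4. Just inside the ratio threshold, chr2:36448201-36449200 had ratios of 8.2 and 7 and chr3:100309201-100310400 had 7.45 and 7, while just outside it chr18:40944201-40946800 had 6.98 and 8.21 and chr13:60191201-60196800 had 7.01 and 6.98. Just inside the read threshold, chr3:150557601-150558000 held 100 and 155 reads and chr4:61745001-61745200 held 123 and 100. Just outside it, chr7:11439001-11440400 held 99 and 100 reads and chr19:3079401-3080400 held 99 and 118.

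The rule asks for few background reads per ChIP read, so the following densities are set in part by the selection and are a description. Wild-type replicate 1 had a median of 12 background reads per kb of peak over the 333, against 23.5 over all shared stretches, and 299 of the 333 (89.8%) lay below the latter value, as did 49.8% of all stretches. The ChIP reads per kb were 111 against 43.9. In 26 stretches a wild-type peak rested on fewer than 10 background reads. At the other extreme, 10 stretches (3%, against 0.154% of all) had at least 5 times the median background per kb of all stretches, and 0 of these belonged to the largest sequence family.

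A few stretches held a large share of the reads. The 333 took 1.09% and 1.22% of all autosomal peak reads of the 2 wild-type lists on 0.236% and 0.246% of the called length, and the 4 with the most reads held 42.5% and 45% of that. The longest, chr17:13540001-13553400, lies in an intron of noncoding genes and held 32653 and 40710 ChIP reads on 3620 background reads in each list. The next longest, chr8:123424001-123435000, in an intron of *Def8*, held 36093 and 34707 reads on 4615 and 4677, and chr13:77637001-77647000, of 10000 bp, held 1019 and 977 reads on 120 and 139. At the other end, chr4:61745001-61745200 and chr18:53505401-53505600 (in *Prdm6*) were 200 bp long and chr1:146121001-146121400 was one of those of 400 bp.

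**Figure D1:**
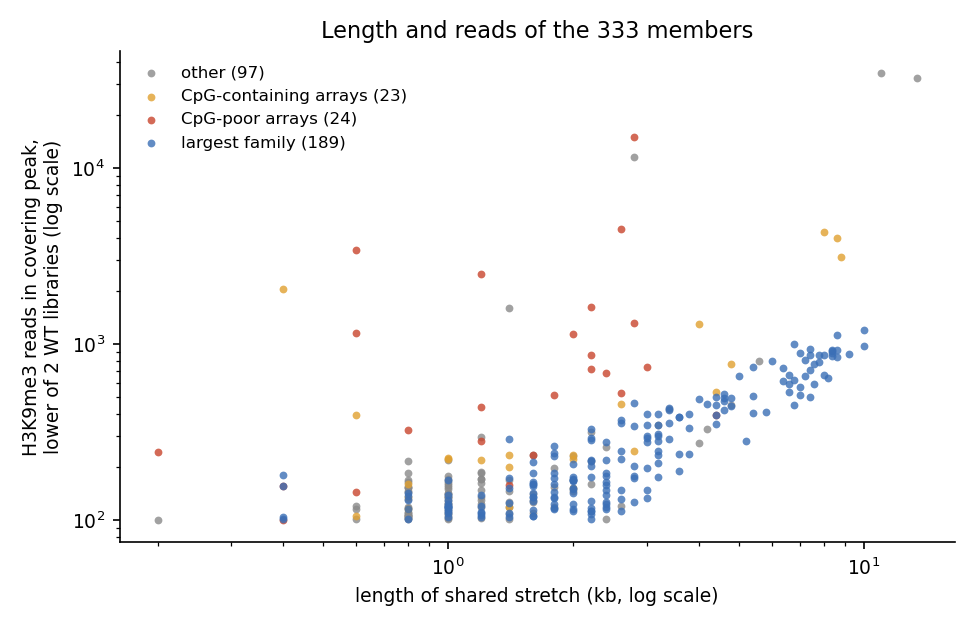
Length in kb (x axis, log scale) against H3K9me3 reads in the covering peak, the lower of the 2 wild-type libraries (y axis, log scale), 1 point for each of the 333 stretches, coloured by sequence kind. Reads grow with length along the 189 stretches of the largest family, while CpG-poor arrays of 2800 bp or less reach 15042 reads.

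Sequence was read from the reference genome (GRCm38), and none of it was used by the rule. The stretches were mostly repeats, and rich in CpG. A median of 93.5% of their bases were soft-masked, that is, marked as repeats in the reference, against 82.8% in the 960 stretches that had a ratio of 5 to under 7 and 23.7% in all stretches. CpG dinucleotides numbered 2.78 per 100 bp, against 2.09 and 1.12. G and C made up 50.3%, against 48.6% and 48.1%. The middle 31-mer (each run of 31 bases) of a stretch occurred 66 times in the genome, against 5 times in stretches with a ratio of 5 to under 7 and once in every 100th shared stretch. Reads from identical copies cannot be told apart by an aligner, so the reads of a stretch may come in part from its copies. Still, 53 stretches (15.9%) had at least 50% of their 31-mers in 1 place only, against 31.2% in the band of 5 to under 7 and 85.1% in every 100th stretch.

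**Figure D2:**
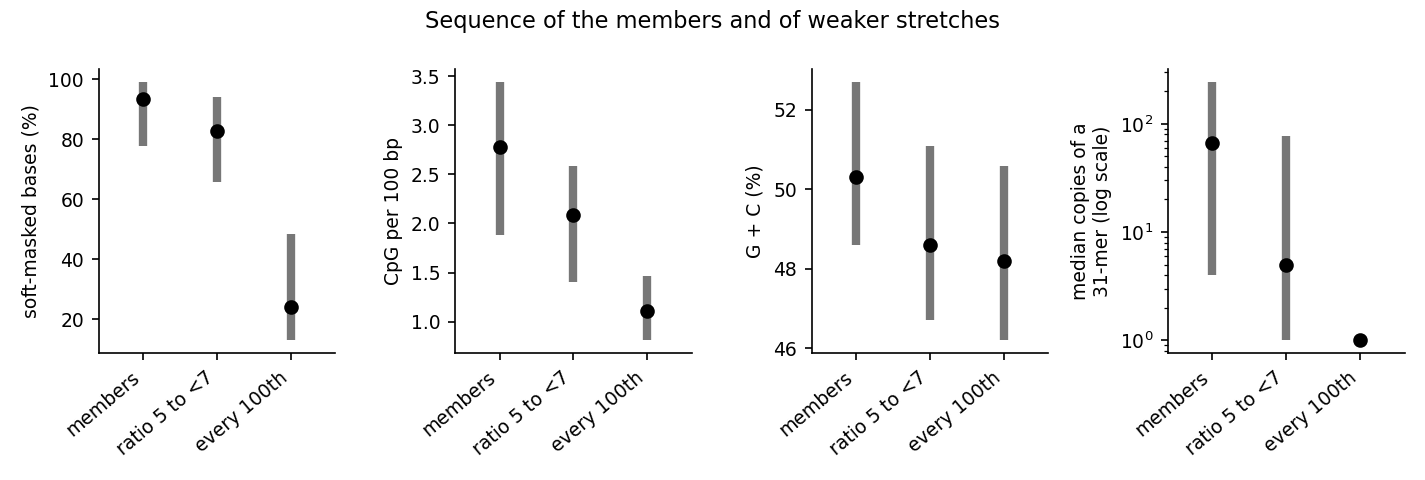
Median (point) and quartiles (bar) of 4 sequence features for the 333 stretches, the 960 with a ratio of 5 to under 7, and every 100th shared stretch (1041): soft-masked bases in percent, CpG per 100 bp, G + C in percent, and copies of a 31-mer in the genome (log scale). All 4 medians step down from the members to the weaker stretches.

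The largest group of related sequences held 191 stretches. Stretches were joined when they shared at least 10% of the 31-mers of the shorter one, which left 80 of the 333 unlinked. The 191 were 98.4% soft-masked and had 3.14 CpG per 100 bp, and their middle 31-mer occurred 157 times in the genome. The study's PCR primers for IAP did not enter the grouping: 62 of the 191 (32.5%) held an exact match to at least 1 of them, and none of the other 142 did. Among all shared stretches 0.566% held one, and 8.12% of the band of 5 to under 7 did. A primer for the related IAPEY element matched 3 stretches, of which 2 were among the 191, and the major satellite primers matched 0. A match to a 20-base primer requires every letter, so a stretch without one may still be such an element. The primers that matched most often, and the runs of 31 bases that most of the 333 share, are printed 5′ to 3′, with CpG in capitals.

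IAP PBS ChIP R primer, in 60 stretches: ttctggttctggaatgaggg

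IAP FW primer, in 43 stretches: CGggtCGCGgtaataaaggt

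IAP RV primer, in 38 stretches: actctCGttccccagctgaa

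Most shared 31-mer, in 87 stretches, at chr2:66845151-66845181, 4936 copies in the genome: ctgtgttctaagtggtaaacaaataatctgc

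Next, in 72 stretches, at chr12:62536073-62536103, 1359 copies: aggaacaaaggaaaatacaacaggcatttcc

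Most shared with at least 2 CpG, in 70 stretches, at chr12:62536105-62536135, 1554 copies: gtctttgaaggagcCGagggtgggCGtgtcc

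The stretch with the highest ratio belonged to this family. It is chr12:62536001-62537000, which lies in an exon of the processed pseudogene *Gm48368*, 680233 bp from the nearest start of a coding gene (*Lrfn5*). Its wild-type peaks held 109 and 118 ChIP reads on 2 background reads each, which gives ratios of 54.5 and 59 from a very small denominator. Its first 300 bases hold 18 CpG and both of the chromosome 12 runs printed above.

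chr12:62536001-62536300, plus strand, CpG in capitals: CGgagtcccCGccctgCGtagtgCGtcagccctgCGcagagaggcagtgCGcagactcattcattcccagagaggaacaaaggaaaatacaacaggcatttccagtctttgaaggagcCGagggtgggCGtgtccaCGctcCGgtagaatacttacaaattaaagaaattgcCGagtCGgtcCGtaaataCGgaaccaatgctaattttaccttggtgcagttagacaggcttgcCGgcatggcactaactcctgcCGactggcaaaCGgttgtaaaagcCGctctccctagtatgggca

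The other stretches of highest ratio had values of 19 or more in both lists. In wild-type replicates 1 and 2, chr2:81461601-81462800 had ratios of 30 and 32.2, chr13:46380001-46382200 22.6 and 25.8, chr8:115283001-115284000 (in *Wwox*) 20 and 19.8, chr3:69620801-69622600 21.7 and 19.5, and chr12:119591001-119593000 19.2 and 21. All 5 belonged to the largest family and rested on 4 to 6 background reads. The last pair held an IAP primer, and so did chr2:66845001-66846800, with ratios of 18.1 and 16.4. The remaining 2 of the highest 8 were tandem arrays, one in an intron of *Fyb* (chr15:6529401-6530800, 26.5 and 28.7) and one in *Flg2* (chr3:93209601-93210800, 19.9 and 20.4).

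Internally repeated stretches, called arrays here, made up 47 of the 333 (14.1%), counted where at least 25% of the bases lay in 20-mers that recur within the stretch. A 20-mer could recur at any distance, so head-to-tail units were not required. Arrays were as common in the band of 5 to under 7 (14.8%) and were found in 4.32% of every 100th stretch. They fell into 2 kinds by CpG content. In 24 the CpG count was under 1 per 100 bp, with a median of 0.333, and in 23 it was 1 or more, with a median of 2.5. The CpG-poor arrays held the densest signal of all kinds, 370 ChIP reads per kb in wild-type replicate 1 against 96.7 in the largest family, on 39.9 against 10.1 background reads per kb.

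The array with the most reads, chr13:74528401-74531200, was a run of the pentamer CACAG. A pair of these (CACAGCACAG, either strand, overlaps counted) occurred at least 10 times in 7 of the 333 stretches (2.1%) and in 0.0846% of all shared stretches. One of the 7, chr17:13540001-13553400, falls short of the 25% that defines an array here. In wild-type replicate 1 these 7 held between 870 and 32653 ChIP reads. A purine-rich run (AGGAGCAGGAG) occurred at least 10 times in 6 stretches, with 246 to 1575 reads, against 0.171% of all stretches. Neither letter run contains the other, and both were chosen after the arrays had been seen. The most frequent units of 2 CACAG arrays, of a purine array and of an array that meets neither letter count, which a test below calls, are printed 5′ to 3′, in lower case throughout because none holds a CpG.

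chr13:74528464-74528487, CACAG array, 31 exact copies in the stretch: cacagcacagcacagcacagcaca

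chr6:29747651-29747669, CACAG array on the other strand, in *Smo*, 28 exact copies: ctgtgctgtgctgtgctgt

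chr6:80491528-80491551, purine array, in *Lrrtm4*, 15 exact copies: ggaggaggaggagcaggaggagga

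chr3:154414638-154414673, the array that meets neither count, 14 exact copies: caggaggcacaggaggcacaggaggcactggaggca

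A second sequence family of 21 stretches held 2.67 CpG per 100 bp and had a median length of 1000 bp, and 16 of the 21 shared a run of 30 bases. Several of its members repeat with a period of about 200 bp. The run is shown because it is the most shared of the family.

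chr1:3020513-3020542, plus strand: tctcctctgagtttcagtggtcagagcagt

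The 1 array over coding sequence lay in *Flg2*, which encodes filaggrin-2, a repetitive protein of the cornified skin layer. The stretches chr3:93205601-93207600, chr3:93209601-93210800 and chr3:93212401-93216400, follow each other within an exon of a processed transcript of the gene, and over 94% of their bases recur with a period of 234 bp. The annotation gives coding sequence at the centre of the third only, and marks the gene as one with an error in the reference genome. The unit of 234 bp that recurs exactly within the third stretch is printed from the coding strand, with CpG in capitals.

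chr3:93215050-93215283, plus strand: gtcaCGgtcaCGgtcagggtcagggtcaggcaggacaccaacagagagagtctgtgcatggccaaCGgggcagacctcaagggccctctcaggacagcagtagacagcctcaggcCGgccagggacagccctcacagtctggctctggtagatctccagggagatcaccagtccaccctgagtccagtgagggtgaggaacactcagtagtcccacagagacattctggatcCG

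Genes were otherwise rare near the 333 stretches. The centre lay between genes in 254 (76.3%, against 75% of the band of 5 to under 7 and 51.9% of all shared stretches) and in an intron in 70 (21%, against 19.6% and 36.9%). The centre of 1 stretch lay within 1 kb of the start of a coding gene, *Gm45844* (chr7:7277401-7278800), with 1607 and 1645 wild-type reads on 152 and 154 background reads, against 3.21% of all stretches. Of the gene lists checked, 24 imprinted genes, 20 germline genes, 20 factors of H3K9 and DNA methylation and 358 *Zfp* genes had no stretch of the set within 5 kb. Of 20 genes of the early cleavage (2-cell) stage, 1 had one, *Zscan4b*, a gene expressed in bursts in mESCs (chr7:10908601-10911800, 304 and 235 reads on 31 and 24). The lists were not checked against other stretches, so these counts do not show that the set avoids or prefers such genes. Along the chromosomes, 35 stretches (10.5%) lay in the first 8 Mb, the centromeric end of mouse chromosomes, against 9.27% of the band of 5 to under 7 and 4.07% of all stretches. Chromosome 3 held the most, 33, and chromosome 8 held the fewest for its stretches, 8 of 7994.

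The lists were then read at the centre of each stretch in the 4 knockout libraries. The mark remained callable at most of them. A peak covered the centre of 317 and 331 of the 333 in *Uhrf1* KO replicates 1 and 2, and of 303 and 324 in *Dhx9* KO replicates 1 and 2. Of all shared stretches, 40.1% and 68.3% had a peak at the centre in the *Uhrf1* KO libraries and 76.7% and 73.1% in the *Dhx9* KO libraries. All 4 libraries had a peak at 290 stretches (87.1%), and at 33104 of all 104009. Neither *Uhrf1* KO library had one at 1 stretch (0.3%), beside 29.8% of all shared stretches and 0.729% of the band of 5 to under 7. Neither *Dhx9* KO library had one at 5 (1.5%), beside 11.5% of all and 1.56% of that band. The rule used wild-type reads, so these shares are a description.

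The stretch missed by all 4 libraries was the first of the *Flg2* array, chr3:93205601-93207600, with 153 and 168 wild-type ChIP reads on 12 background reads. Peaks covered 40% to 50% of it in each knockout library, but not its centre. The other 4 without a *Dhx9* KO peak were chr1:13550401-13552400, chr14:6658601-6659800 in *Gm10251*, chr7:7794201-7797200 in the vomeronasal receptor gene *Vmn2r35*, and chr6:132496401-132498600. Wild-type ChIP reads were 151 and 179, 318 and 298, 179 and 149, and 124 and 117 in that order. Only the last had no base under a *Dhx9* KO peak in either library, and it held 87 and 138 reads in the *Uhrf1* KO peaks.

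Missing peaks gathered in single libraries. Of the 30 stretches without a peak in *Dhx9* KO replicate 1, 27 were among the 189 stretches of the largest family that are not arrays, whereas replicate 2 lacked a peak at 6 of these. For stretches with an IAP primer the numbers were 14 and 2 of 62. The 2 libraries of this genotype thus differed from each other. The CpG-poor arrays had a peak at the centre of all 24 in each of the 4 knockout libraries. Among the 7 CACAG arrays, chr17:13540001-13553400 had no peak at its centre in *Uhrf1* KO replicate 1 and held 28918 reads on 1884 background reads in replicate 2. This array counts among the other sequences, since 20% of its bases recur.

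The strength of the remaining peaks was compared over the 290 stretches with a peak in all 6 libraries, by the log2 fold of ChIP over background that the peak caller gives. The medians were 3.29 and 3.30 in wild-type replicates 1 and 2, 2.63 and 3.30 in *Uhrf1* KO replicates and 2.44 and 2.63 in *Dhx9* KO replicates. Over all 33104 stretches with a peak in all 6, they were 1.49, 1.51, 1.69, 1.80, 1.19 and 1.38 in the same order. The set was chosen for high wild-type values, so lower values elsewhere are a description. Relative to the wild-type mean, the log2 fold was lower at 288 and 282 of the 290 in *Dhx9* KO replicates 1 and 2 and at 272 and 168 in *Uhrf1* KO replicates 1 and 2. The same count was not made over all 33104 stretches, whose medians in *Dhx9* KO were also below wild-type. Each fold is taken over the peak of its own library, so the intervals compared differ in width, as given below. The *Uhrf1* KO libraries differed from each other, with median differences of -0.76 in replicate 1 and -0.09 in replicate 2. Between the knockouts, which the rule did not use, the means of the library medians differed by 0.43, with an exact two-sided permutation p of 0.333, the smallest that 2 against 2 libraries allow.

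Background reads enter each of these values. The *Dhx9* KO lists share the background reads of the wild-type lists in every peak with the same limits, whereas the *Uhrf1* KO lists do in 2.03% to 4.08% of such peaks and have a median of 0.6 to 0.608 times the reads. Background and genotype cannot be told apart in *Uhrf1* KO ratios. The *Uhrf1* KO 1 list also holds the fewest reads, 6542496 in autosomal peaks, against 16558383 to 20600757 in the other 5 lists. Peaks that covered the 290 were wider outside the wild-type, with medians of 3800 and 3100 bp in *Uhrf1* KO and 2400 and 3600 bp in *Dhx9* KO against 2000 and 2100 bp in wild-type libraries. When the read thresholds were applied to each genotype, 46 stretches passed in both *Uhrf1* KO lists, of which 9 (19.6%) overlapped the 333, and 31 in both *Dhx9* KO lists, of which 26 (83.9%) did. In *Uhrf1* KO a single library set this number: 58 peaks (0.0854%) of replicate 1 passed, against 6177 (6.79%) of replicate 2. Of the 333, 8 and 295 passed in these replicates. The ratio is of raw reads, so 7 is not the same enrichment in each library. By the caller's log2 fold, no enrichment lay at ratios of 0.895 and 0.86 in wild-type replicates 1 and 2. It lay at 0.688 and 1.27 in *Uhrf1* KO and at 0.999 and 0.994 in *Dhx9* KO. How many stretches each pair of knockout lists shares was not counted. In *Dhx9* KO replicates 1 and 2, 43 and 97 of the 333 passed, beside 94 (0.0758%) and 240 (0.203%) of all their peaks. In wild-type replicates 1 and 2, 724 (0.635%) and 612 (0.52%) of all peaks passed.

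**Figure D3:**
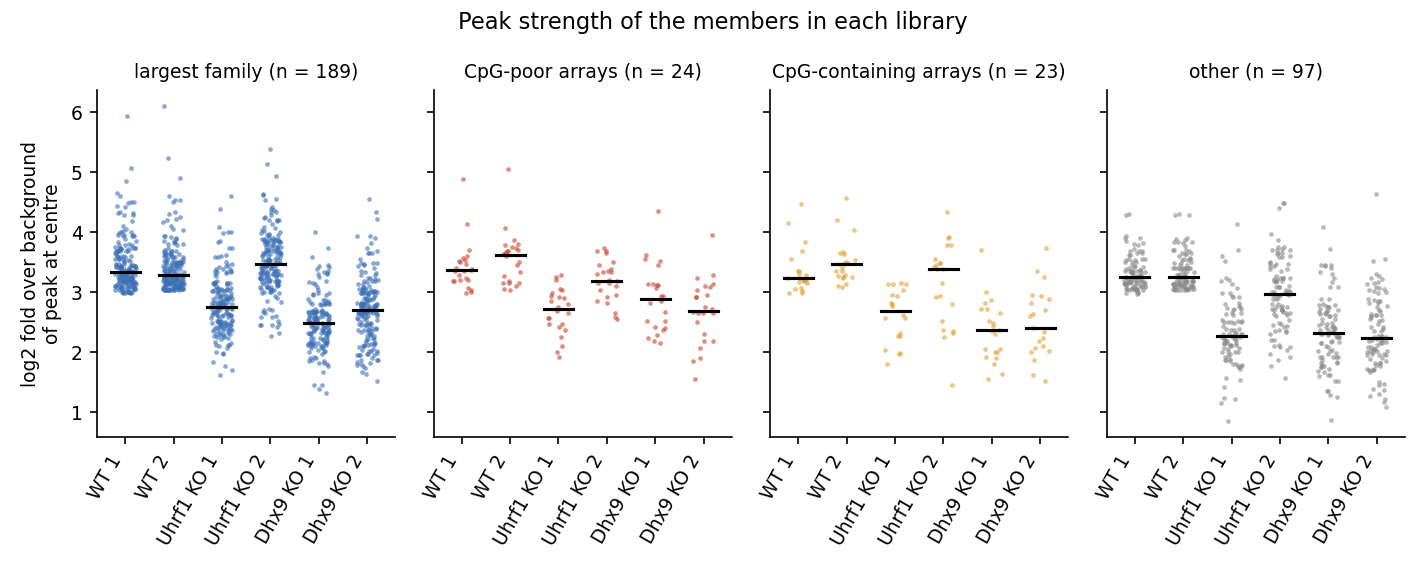
Log2 fold of ChIP over background of the peak at the centre (y axis) in each of the 6 libraries (x axis), 1 point for each stretch with a peak there and a black line at the median, by sequence kind. Wild-type points start at the rule's threshold, and the medians of *Uhrf1* KO replicate 2 lie above those of replicate 1 in every panel.

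Read counts were tested with edgeR's quasi-likelihood test over all regions called in all 4 libraries of a comparison and covered over at least 80% in each, with the called length as an offset and adjusted p-values over all regions. Few of the 333 met this: 40 in *Uhrf1* KO against *Dhx9* KO, 72 in *Uhrf1* KO against wild-type and 62 in *Dhx9* KO against wild-type. A stretch covered over less than that in any library was not tested. The comparisons with wild-type share the wild-type libraries and rest on values that chose the set, so their calls are descriptions.

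In the comparison that the rule did not use, *Uhrf1* KO against *Dhx9* KO, 2 of 40 stretches (5%) had fewer reads in *Uhrf1* KO, beside 1.84% of the 1955 regions, and 0 had more, beside 0.256%. Both were CpG-poor arrays, with the units printed above, and they were not joined by shared 31-mers. The array in *Lrrtm4*, a gene for a synaptic adhesion protein, held 124 and 282 reads in *Uhrf1* KO libraries and 428 and 431 in *Dhx9* KO libraries, before scaling for depth. Its log2 change was -0.88 ± 0.19 (SE, edgeR adjusted p = 0.00793). The array at chr3:154414401-154416800 held 211 and 586 reads against 767 and 700, with a log2 change of -0.77 ± 0.16 (edgeR adjusted p = 0.00626). At the *Lrrtm4* array each *Uhrf1* KO list held 25 background reads, against 67 and 69 in the *Dhx9* KO lists. At the other array they held 55 and 64, against 87 and 91. Over all peaks with the same limits, the *Dhx9* KO lists held a median of 1.67 to 1.7 times the *Uhrf1* KO background. Fewer background reads in *Uhrf1* KO are thus not particular to these arrays. The part of the background in the change was not tested. Neither call was made in the fit of all 6 libraries, with equal library sizes, or without *Uhrf1* KO replicate 1 or *Dhx9* KO replicate 1. The largest positive changes among tested stretches, neither past the threshold, were 0.56 ± 0.25 at chr12:7145801-7148200 and 0.54 ± 0.27 in *Wwox*. The median change over the 40 was 0.13, and -0.02 over all regions. With regions covered over at least 50%, 3 of 187 stretches had more reads in *Uhrf1* KO, beside 0.723% of regions, and 2 had fewer, beside 0.549%.

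In *Uhrf1* KO against wild-type, the CpG-poor arrays again had the lowest median change of read counts among the tested kinds (-0.95, 12 arrays). By the log2 fold over the 290, the other sequences lay lowest instead. Relative to the wild-type mean, their medians were -0.99 and -0.34 in *Uhrf1* KO replicates 1 and 2, against -0.70 and -0.20 in CpG-poor arrays. Of 72 stretches, 11 (15.3%) had fewer reads, beside 7.31% of the 2408 regions, and 0 had more, beside 2.62%. The 11 comprised 10 of the 12 CpG-poor arrays tested and 1 of the 9 other stretches, and 5 of the 10 were purine arrays and 3 CACAG arrays. None of the 47 stretches of the largest family was called, and their median change was -0.05. The 3 largest changes were in arrays of the purine type. The *Lrrtm4* array held 612 and 513 reads in wild-type libraries and the *Uhrf1* KO reads given above (log2 change -1.29 ± 0.14, edgeR adjusted p = 2.23e-05). The array in *Tbc1d5*, chr17:50959601-50960800, held 89 and 267 reads in *Uhrf1* KO against 452 and 440 (-1.27 ± 0.17, edgeR adjusted p = 0.000115), and chr9:15133801-15136600 held 261 and 789 against 1575 and 1317 (-1.15 ± 0.15, edgeR adjusted p = 9.11e-05). CACAG arrays were called as well, for example chr3:60045001-60046200 with 907 and 2335 reads against 2519 and 3051 (-0.75 ± 0.13, edgeR adjusted p = 0.00129). The largest positive changes, neither past the threshold, were 0.34 ± 0.20 at chr1:148462601-148463800 and 0.26 ± 0.19 at chr12:7145801-7148200.

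The background of these arrays moved in the same direction. In the 6 purine arrays, background reads per kb in the *Uhrf1* KO lists were 0.454 and 0.451 times those of wild-type replicate 1, against 0.787 and 0.775 in the largest family and 0.572 and 0.585 over all stretches. ChIP reads per kb, not scaled for depth, were 0.197 and 0.581 times wild-type replicate 1 in the purine arrays. They were 0.393 and 1.19 times in the largest family and 0.477 and 0.994 times over all stretches. As a ratio to background, the purine arrays lay between 7.29 and 11.7 in wild-type replicate 1, 2.61 and 4.96 in *Uhrf1* KO replicate 1, and 7.97 and 12.9 in *Uhrf1* KO replicate 2. By that measure replicate 2 overlapped wild-type, and the part of the background in the calls was not tested. With equal library sizes 0 of the 2408 regions were called in either direction, so that setting shows nothing particular to the set. With 1 library left out, the number of calls moved in the set and over all regions. The median change of the 72 was -0.01 and -0.32 without *Uhrf1* KO replicates 1 and 2, beside -0.07 and -0.05 over all regions. It was -0.16 and -0.09 without wild-type replicates 1 and 2, beside -0.05 in both. With regions covered over at least 50%, 26 of 207 had fewer reads, beside 2.93% of regions, and 17 of these were CpG-poor arrays.

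In *Dhx9* KO against wild-type, 3 of 62 stretches (4.84%) had fewer reads, beside 0.392% of the 4587 regions, and 0 had more, beside 0.0218%. All but 2 of the 62 changes were negative, and their median was -0.40, beside 0.00 over all regions. The 3 were of different kinds. The array in an intron of *Ranbp3l*, chr15:9015601-9016200, held 207 and 227 reads in *Dhx9* KO against 396 and 412 in wild-type, on 50 background reads in all 4 lists (log2 change -0.90 ± 0.16, edgeR adjusted p = 0.0177). The array in *C18orf63*, chr18:84830601-84833600, held 469 and 543 reads against 964 and 737 (-0.88 ± 0.15, edgeR adjusted p = 0.0107). A stretch of the largest family, chr9:119867601-119870400, held 247 and 326 against 465 and 510 (-0.77 ± 0.16, edgeR adjusted p = 0.0467). None of the 3 overlaps wild-type in its reads. The largest positive values, neither past the threshold, were 0.26 ± 0.18 in *Ctse* and 0.01 ± 0.14 at chr1:166596801-166601600. With 1 library left out, the number of calls moved in the set and over all regions. The median change of the 62 was -0.39 and -0.35 without wild-type replicates 1 and 2, beside 0.01 over all regions in both. It was -0.31 and -0.46 without *Dhx9* KO replicates 1 and 2, beside -0.02 and 0.00. With regions covered over at least 50%, 11 of 192 stretches had fewer reads, beside 0.187% of regions, and 0 had more, beside 0.017%.

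**Figure D4:**
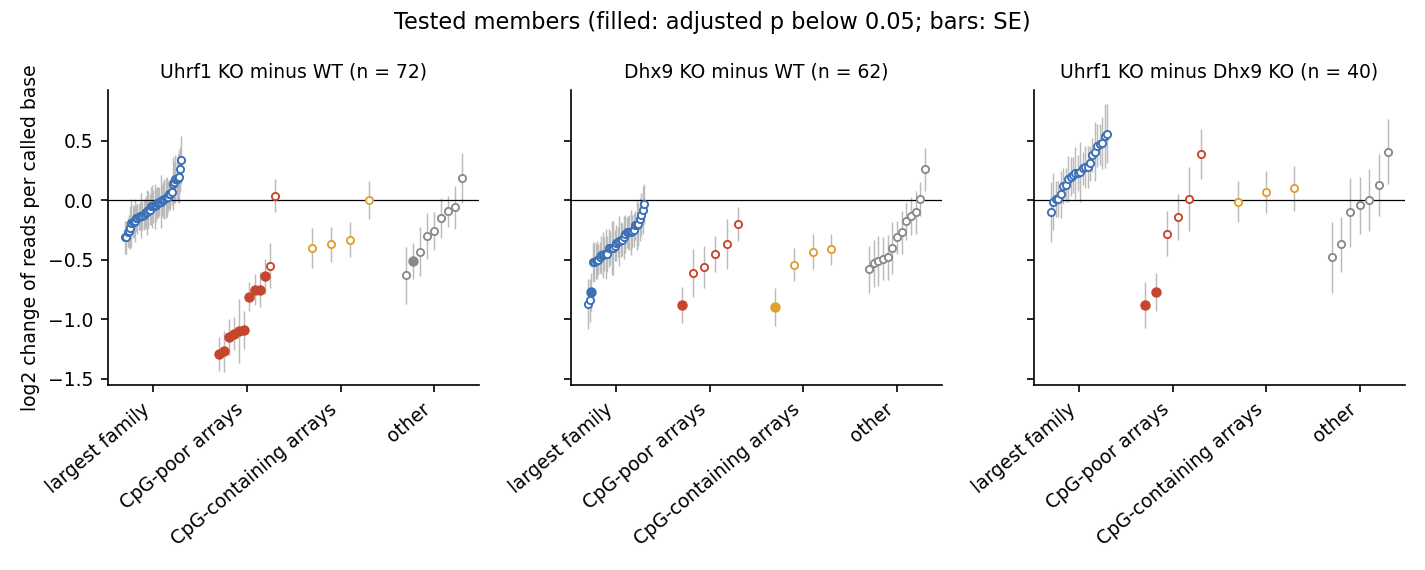
Log2 change of reads per called base (y axis) of each tested stretch with its SE (bar), by sequence kind (x axis), for the 3 comparisons; filled points have an adjusted p below 0.05. In the left panel 10 of 12 CpG-poor arrays are filled and 0 of 47 stretches of the largest family are, and in the middle panel nearly all points lie below 0.

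The ratios of arrays with a shared unit were spread to a different extent in each library. The 7 CACAG arrays had ratios of 8.69 to 10.3 in wild-type replicate 1 and 10.5 to 12.6 in replicate 2. They had 4.44 to 6.56 in *Uhrf1* KO replicate 1 (6 arrays), 11 to 16.4 in *Uhrf1* KO replicate 2, 5.72 to 12.3 in *Dhx9* KO replicate 1 and 5.63 to 9.73 in *Dhx9* KO replicate 2. The largest of them with a peak in all 6, chr13:74528401-74531200, held 15042 and 18329 reads in wild-type, 4834 and 13865 in *Uhrf1* KO and 18012 and 14192 in *Dhx9* KO libraries, so that *Dhx9* KO lay within the wild-type range or just below it. The ratios above are not scaled for library size. By log2 fold, which is scaled, the medians of the CACAG arrays were 3.40 and 3.71 in wild-type libraries. They were 3.01 and 3.38 in *Uhrf1* KO and 3.45 and 3.09 in *Dhx9* KO libraries. Arrays of 1 unit may share reads, so they are not independent.

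**Figure D5:**
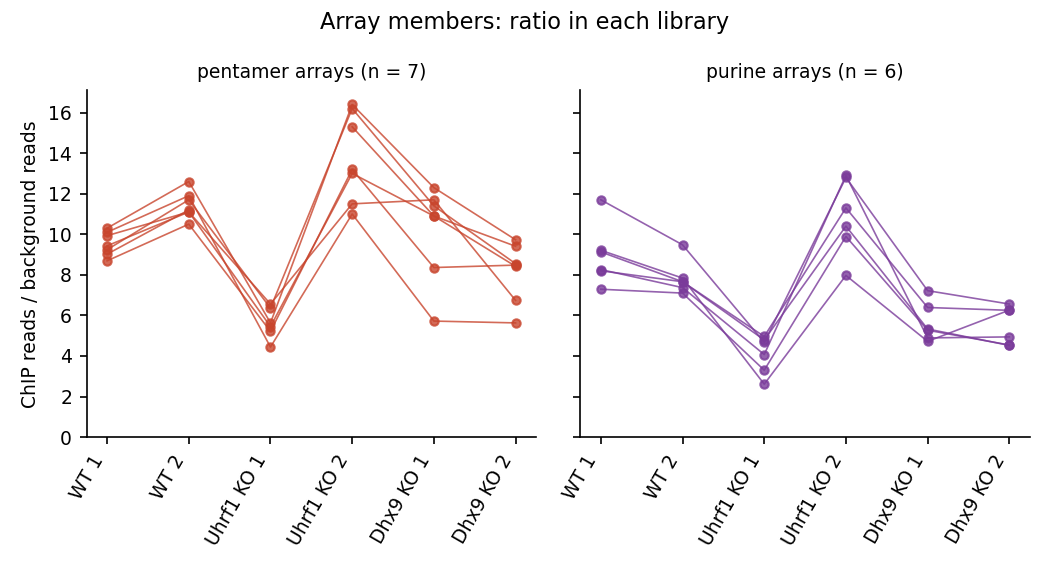
Ratio of ChIP to background reads (y axis) in each of the 6 libraries (x axis) for the arrays with at least 10 matches to the CACAG pair (7, pentamer arrays) or the purine run (6); a line joins the values of 1 array and has no meaning of time. Purine and CACAG arrays have their lowest or near-lowest ratios in *Uhrf1* KO replicate 1. The ratio is not scaled for library size. By the scaled log2 fold, the purine arrays had medians of 2.66 in that library and 2.41 and 2.48 in *Dhx9* KO replicates 1 and 2.

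A minority of the stretches were mostly unique sequence. Of the stretches with at least 80% of their 31-mers in 1 place, the one with the highest ratio was chr10:121116601-121117800, with 103 and 110 wild-type reads on 9 background reads each and 33446 bp from the start of *Wif1*, a gene for a secreted Wnt inhibitor. The 200 bases at its centre hold 3 CpG.

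chr10:121117101-121117300, plus strand, CpG in capitals: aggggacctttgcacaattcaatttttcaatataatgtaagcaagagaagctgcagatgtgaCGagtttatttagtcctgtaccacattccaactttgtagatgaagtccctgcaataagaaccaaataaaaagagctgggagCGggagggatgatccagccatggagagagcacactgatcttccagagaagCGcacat

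The 53 stretches made at least 50% of single-copy 31-mers had a peak at the centre of 51 and 53 in *Uhrf1* KO replicates 1 and 2 and of all 53 in both *Dhx9* KO libraries. Their median ratios were 8.15 and 8.35 in wild-type, 3.17 and 9.85 in *Uhrf1* KO and 5.07 and 4.68 in *Dhx9* KO libraries. These ratios are not scaled for library size. The median log2 folds, which are scaled, were 3.19 and 3.28 in wild-type libraries. They were 2.20 and 2.96 in *Uhrf1* KO replicates 1 and 2 and 2.34 and 2.23 in *Dhx9* KO replicates. By log2 fold all knockout medians were below the wild-type medians, whereas by ratio that of *Uhrf1* KO replicate 2 was above them. The rule chose high wild-type values, so this is a description.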

How the data were processed

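H3K9me3 ChIP-seq peak lists of 6 of the 18 samples were used, 2 each for wild-type, *Uhrf1* KO and *Dhx9* KO mESCs, grouped by their labels; the other 12 samples were not analysed here. Per the submitters' notes, reads were aligned with Bowtie2 2.3.4.3 to mm10, and peaks were called in each library in bins of 200 bp, with duplicates kept (epic2, listed in the notes as SICER 0.0.51). For every peak the authors deposited raw read counts from the ChIP and from its background. Their peak caller also gave each deposited peak a p-value and an adjusted one, a log2 enrichment scaled to library size, and a score that is a capped multiple of it. Counts and log2 values were used here. Reads outside peaks are not in the lists. Replicates differed by more than counting noise (chi-square per degree of freedom of 4.03, 9.34 and 6.68), and none was a copy.

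Shared stretches, 31-mers, primers and annotation were computed with Python 3.11.15 (numba 0.67.0, pysam 0.24.0) on GRCm38 and GENCODE, with 1-based positions. Regions merged from the peaks of the libraries compared, covered over at least 80% in each, went into edgeR 4.0.16 under R 4.3.3: TMM scaling, an offset for the called length, then the quasi-likelihood test and Benjamini-Hochberg adjustment with a threshold of 0.05. DESeq2 1.42.0 was an alternative. On simulated counts, 88.5%, 91.5% and 95.5% of 200 regions changed 2-fold were recovered in *Uhrf1* KO against *Dhx9* KO, *Uhrf1* KO against wild-type and *Dhx9* KO against wild-type (1955, 2408 and 4587 regions). Counting error alone limits ratios on few background reads. The members, gene lists and tests were chosen with earlier results of these data known. Stretches were named by rule: the highest ratios, the longest and shortest, the largest changes per comparison, those without a knockout peak, those at coding starts or listed genes, those next to a threshold, and the strongest with a repeat primer. Arrays, motifs and the single-copy stretch were chosen after their values were seen. Other thresholds, overlap rules, coverage, scaling, a replicate block and leaving out each library were tried.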

Additional observations from a re-analysis of the deposited data

Results flagged for a closer look

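Both stretches that passed the threshold in *Uhrf1* KO against *Dhx9* KO are listed because this test compares the effects of the knockouts directly: chr3:154414401-154416800, with a log2 difference of -0.77, and chr6:80491401-80493200 in *Lrrtm4*, with -0.88 (edgeR's quasi-likelihood test, adjusted p = 0.00626 and 0.00793). Of the stretches tested, 0 were called lower with equal library sizes, in the fit of all 6 libraries, with a replicate block, without a coverage minimum, and without *Uhrf1* KO replicate 1 or *Dhx9* KO replicate 1. With equal library sizes, and in the fit of all 6 libraries, 0 regions of any kind were called lower or higher. The same wild-type libraries would enter both effects, and the direct test does not use them.

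Chromosomes X and Y lie outside the rule. With the same thresholds, 68 of 1475 shared wild-type stretches on X (4.61%) and 21 of 184 on Y (11.4%) would pass, against 333 of 104009 on chromosomes 1 to 19 (0.32%). No value of these chromosomes enters a comparison above.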

How the results depend on the processing

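Of 133 alternatives tried over all results, those that moved a value are given here, and the cause was not tested unless the setting itself holds fewer samples or regions. The number of stretches (333) was 691 with at least 50 reads, 152 with at least 200, 1293 with a ratio of at least 5 and 70 with at least 10, and 612 to 724 when 1 wild-type list was used alone. Stretches without a *Uhrf1* KO peak (1) numbered 0 where any overlap or 50% coverage kept one, and 2 to 16 with 1 library left out. For *Dhx9* KO (5) the numbers were 1 with any overlap and 9 to 30 with 1 library left out. The largest family held 79 stretches where 50% of 31-mers had to be shared, a setting added after seeing the data, as was the one without a coverage minimum.

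In *Uhrf1* KO against *Dhx9* KO, the 2 stretches called lower became 0 with equal library sizes, in all 6 libraries in one fit and without a coverage minimum, and were 0 to 2 with 1 library left out (0 without *Uhrf1* KO replicate 1 or *Dhx9* KO replicate 1). All 6 libraries in one fit left 27 stretches to test in each comparison. In *Uhrf1* KO against *Dhx9* KO, that fit and equal library sizes called 0 regions of any kind. In *Dhx9* KO against wild-type, that fit called 0 as well. Stretches called higher were 3 at 50% coverage and 4 without a minimum, and the median change was 0.42 without a minimum. In *Uhrf1* KO against wild-type, the 11 became 0 with equal library sizes, a setting that called 0 regions of any kind. They became 26 at 50% coverage, 1 in all 6 libraries in one fit and 0 without a coverage minimum. With 1 library left out, the number of calls moved in the set and over all regions, and the median change was -0.32 to -0.01. Stretches called higher were 0 to 1 with 1 library left out. In *Dhx9* KO against wild-type, the 3 became 0 with equal library sizes, with no length offset and in all 6 libraries in one fit, 11 at 50% coverage, and 0 to 38 with 1 library left out (27 without *Dhx9* KO replicate 1, 1 without wild-type replicate 2). The median change was -0.51 without a coverage minimum and -0.46 to -0.31 with 1 library left out.

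Replicate numbers are shared by the genotypes but pair nothing: the deviations of same-numbered libraries correlated at 0.00, 0.07 and -0.07. With a replicate block, stretches called lower were 0 in *Uhrf1* KO against *Dhx9* KO, 12 in *Uhrf1* KO against wild-type and 6 in *Dhx9* KO against wild-type.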
